A study of Mus musculus with 12 samples.

Results

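The apolipoprotein L (Apol) cluster on mouse chromosome 15 was followed through 6 of its genes, Apol7c, Gm8221, Apol7a, Apol9a, Apol9b and Apol6, out of 23847 gene rows measured. These genes were chosen by name, with earlier results of the same data known: Gm8221 and Apol7a were picked for large positive interactions of IL-4 and LPS. The members' own differences are therefore given as descriptions with a standard error (SE) and no p-value, and tests are given only for genes outside the list.

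Messenger RNA was sequenced from wild-type C57BL/6 bone marrow-derived macrophages (BMDMs). These cells are grown from the marrow of mice aged 8 to 12 weeks by 6 days of culture in L929 cell supernatant, a source of the growth factor M-CSF. Of the 4 groups, control cells were left unstimulated, IL-4 cells received 20 ng/ml of IL-4 for 24 h, LPS cells received 100 ng/ml of LPS for 3 h, and IL-4+LPS cells received IL-4 for 24 h and then LPS for 3 h. The study's methods give the LPS dose in nM rather than ng/ml, and the labels were followed here. Each group held 3 samples, which made 12 in all, and the question was how an alternatively polarized macrophage responds to a later inflammatory signal. A figure legend of the study gives 3 animals from a pair of experiments. The labels do not tie a sample to an animal, so the errors below measure the spread between samples.

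Apol proteins are helical, lipid-binding proteins. The human member APOL1 circulates on lipoprotein particles and kills trypanosomes, whereas most other members stay inside the cell, and several are raised by interferon or by inflammatory cytokines. In the mouse the family has expanded by local duplication next to Myh9. Apol7c has been linked to damage of phagosome membranes in dendritic cells, Apol9a and Apol9b are known as interferon-induced antiviral genes, and Gm8221 is annotated as an unprocessed pseudogene, that is, a duplicated gene copy not annotated as protein-coding.

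**Figure D1:**
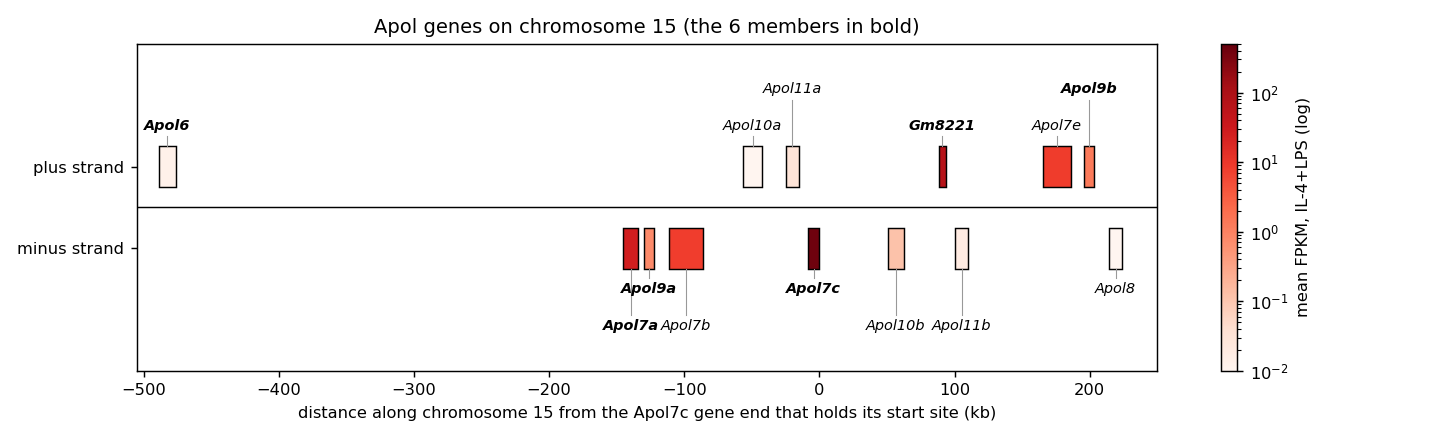
Map of the Apol genes on chromosome 15 (GENCODE annotation), with distance in kb from the Apol7c start site on the x axis and strand on the y axis; the color of each box is the mean FPKM of the 3 IL-4+LPS samples on a log scale. Apol7c (409.65 FPKM) and Gm8221 (70.9 FPKM) are the darkest boxes, and Apol6 lies apart from the rest with a mean of 0.0132 FPKM.

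In mm10 the deposited loci of the Apol7 members were chr15:77524867-77533315 for Apol7c on the minus strand, chr15:77618968-77627398 for Gm8221 on the plus strand and chr15:77388217-77399110 for Apol7a on the minus strand. Apol9a lay at chr15:77403789-77411080 on the minus strand, Apol9b at chr15:77729072-77736382 on the plus strand and Apol6 at chr15:77045075-77057108 on the plus strand. The locus of Gm8221 in the files was longer than its GENCODE gene, which spans chr15:77621834-77626637.

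Because these genes are copies of one another, a stretch of coding sequence is shown first, so that the basis for telling the rows apart is visible. The stretch is 100 bases from the middle of the Apol7c coding sequence, in an exon (chr15:77526142-77526241, minus strand), with the best matching 100 bases of Gm8221 (chr15:77626031-77626130, plus strand) and of Apol7a (chr15:77389511-77389610, minus strand). Capitals mark the bases that differ from Apol7c. Gm8221 differed from Apol7c at 2 bases, and Apol7a at 4 bases. The matching bases of Apol7b and Apol7e, which are not members, were the same as those of Apol7a.
Apol7c: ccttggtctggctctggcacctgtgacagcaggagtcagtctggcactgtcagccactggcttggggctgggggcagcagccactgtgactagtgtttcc
Gm8221: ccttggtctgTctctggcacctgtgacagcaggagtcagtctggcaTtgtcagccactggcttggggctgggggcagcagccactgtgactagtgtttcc
Apol7a: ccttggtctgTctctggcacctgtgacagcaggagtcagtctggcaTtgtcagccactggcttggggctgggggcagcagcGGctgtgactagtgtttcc

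Over whole transcripts, sharing fell into 2 blocks. Of the 100-base words of the longest Apol7c transcript, with 100 bases being the read length, 3.6% occurred unaltered in Gm8221 and 2.1% in Apol7a, and 25.4% and 13.7% did so within 2 mismatches. Gm8221 was the least distinct Apol7 member, with 59.5% of its words within 2 mismatches of another Apol gene, mostly Apol7c (49.4%). Apol7a was the most distinct, with 16.7%. Apol9a and Apol9b formed the other block: 73.2% of Apol9a words were within 2 mismatches of Apol9b, and 41.1% were identical to it. Apol6 shared no such word with the other 7 genes compared. The study's methods name default parameters for mapping and for the FPKM estimate, and by default Cufflinks divides a fragment evenly over the places it maps to. The Gm8221 level, and the division between Apol9a and Apol9b, are the least certain values below.

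**Figure D2:**
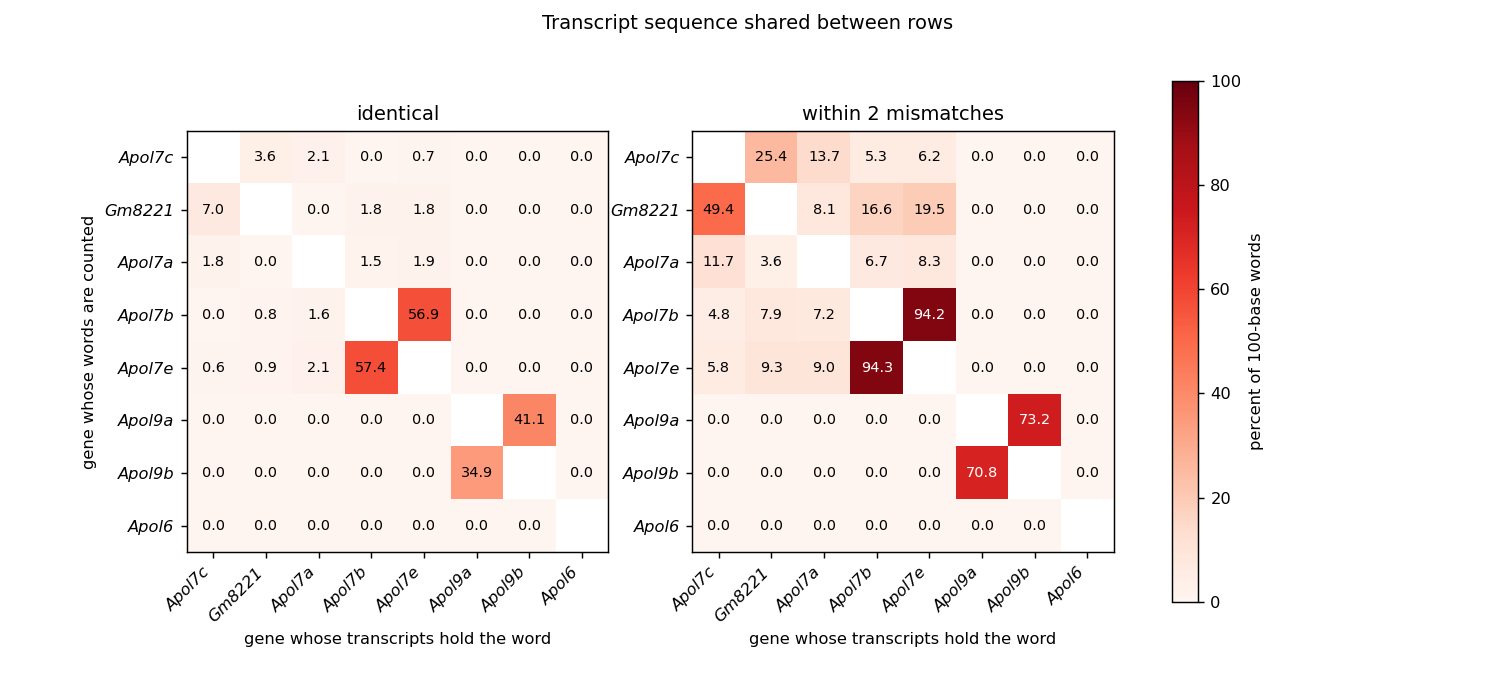
Percent of the 100-base words of each gene (rows) found in transcripts of each other gene (columns), unaltered at left and within 2 mismatches at right, for the 6 members with Apol7b and Apol7e. Apol7c, Gm8221 and Apol7a share words in the right panel at 3.6% to 49.4%, Apol7b and Apol7e share nearly all of theirs, and Apol9a and Apol9b share theirs with each other.

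Promoters are shown next, since the groups differ in a pair of signals that act through known DNA sites. IL-4 acts through STAT6, whose sites are inverted repeats with a spacer of 4 bases. LPS acts through NF-kB and, by way of type I interferon, through the interferon-stimulated response element (ISRE). RefSeq promoters (GRCm38.p6, from 250 bases before to 50 bases after the start site) were at hand for 4 members, Apol7c, Apol7a, Apol9a and Apol9b. On both strands, the letters GAAANNGAAA were searched for the ISRE, TTCNNNNGAA for STAT6, TTCNNNGAA for the gamma-activated site, and the NF-kB consensus. Of 32851 mouse promoters, 3.44% held the ISRE letters, 6.95% the STAT6 letters, 8.3% the gamma-activated site letters and 8.46% the NF-kB consensus.

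Apol7c was the only one of the 11 Apol genes in the promoter table that held the STAT6 letters, which 6.95% of all promoters hold. It held the ISRE letters as well, a pair found together in 0.289% of all promoters. The ISRE letters were also in Apol7e, Apol9a and Apol9b. They were in Apol10a, Apol10b, Apol11a and Apol11b too, whose rows stayed under 1 FPKM. Whether these matches exceed the background shares was not tested, and nothing is read from them. The 4 promoters printed below are those of Apol7c (chr15:77533266-77533565, minus strand), Apol7e (chr15:77698639-77698938, plus strand), Apol7b (chr15:77447411-77447710, minus strand) and Apol9b (chr15:77728822-77729121, plus strand). Capitals mark the matched letters, each printed as read on the gene's strand. In Apol7c the STAT6 letters began at position -72 from the start site and the ISRE letters at -55 and -49, the latter pair overlapping by 4 bases. Apol7e and Apol9b each held an overlapping pair of ISRE matches and no STAT6 match.
Apol7c: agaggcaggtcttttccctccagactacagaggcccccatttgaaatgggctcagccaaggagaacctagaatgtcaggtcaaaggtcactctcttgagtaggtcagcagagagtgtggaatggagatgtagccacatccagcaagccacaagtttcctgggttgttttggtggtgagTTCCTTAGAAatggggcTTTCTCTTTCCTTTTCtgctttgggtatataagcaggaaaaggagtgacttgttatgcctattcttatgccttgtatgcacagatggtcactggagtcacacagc
Apol7e: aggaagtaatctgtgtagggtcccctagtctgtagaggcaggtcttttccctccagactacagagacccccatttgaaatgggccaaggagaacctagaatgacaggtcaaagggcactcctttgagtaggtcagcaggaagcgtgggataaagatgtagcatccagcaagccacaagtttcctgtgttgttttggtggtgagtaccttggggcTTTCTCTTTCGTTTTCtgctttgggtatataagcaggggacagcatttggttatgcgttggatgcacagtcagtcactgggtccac
Apol7b: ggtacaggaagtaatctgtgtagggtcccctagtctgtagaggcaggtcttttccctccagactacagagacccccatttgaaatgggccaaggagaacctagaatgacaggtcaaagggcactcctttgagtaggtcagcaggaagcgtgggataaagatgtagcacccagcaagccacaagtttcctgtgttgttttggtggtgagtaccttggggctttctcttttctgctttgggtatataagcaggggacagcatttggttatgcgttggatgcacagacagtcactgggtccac
Apol9b: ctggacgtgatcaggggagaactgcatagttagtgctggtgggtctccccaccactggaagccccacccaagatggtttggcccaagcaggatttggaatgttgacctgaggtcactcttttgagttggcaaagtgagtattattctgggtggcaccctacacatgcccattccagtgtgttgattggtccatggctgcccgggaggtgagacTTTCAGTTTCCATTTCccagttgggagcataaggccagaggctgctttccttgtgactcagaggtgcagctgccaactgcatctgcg

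The promoters of Apol9a and Apol9b were 100% identical where they overlapped. Apol7a and Apol7b held none of the 4 motifs. A link between these motifs and the levels of the rows was not tested. A match of letters is a description of this window and not evidence of binding, and a missing match says only that the letters are not in these 300 bases. Apol6 and Gm8221 had no promoter in the table.

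FPKM, the deposited unit, is the number of fragments scaled to transcript length and to the mapped fragments of the sample, so levels can be set side by side between genes. Apol7c was the most abundant member in every group. Its level was 0.587, 1.29 and 0.548 FPKM in control replicates 1 to 3, 9.78, 9.10 and 6.98 with IL-4, 20.1, 15.4 and 9.40 with LPS, and 416, 431 and 382 with IL-4+LPS. All control samples lay lowest and all IL-4+LPS samples highest, while the IL-4 and LPS samples overlapped. On group means IL-4 was 10.7-fold and LPS 18.6-fold above control, and IL-4+LPS was 508-fold above control, 47.5-fold above IL-4 and 27.4-fold above LPS. With 409.65 ± 24.8 FPKM (SD, n = 3), Apol7c ranked 170 of the 23847 rows in IL-4+LPS cells, against 10608 in control cells.

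Gm8221 followed Apol7c at a lower level. The row read 0.0303, 0.189 and 0.0644 FPKM in control cells, 1.47, 1.28 and 0.929 with IL-4, 2.21, 1.55 and 1.02 with LPS, and 74.3, 73.2 and 65.3 with IL-4+LPS. Again the IL-4 and LPS samples overlapped and the IL-4+LPS samples stood apart from all others. The IL-4+LPS mean of 70.9 ± 4.90 FPKM (SD, n = 3) was 57.8-fold above IL-4 and 44.4-fold above LPS.

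Apol7a, a protein-coding copy on the far side of Apol7c from Gm8221, had the same order. Its values were 0.0398, 0.119 and 0.0362 FPKM in control cells, 0.561, 0.493 and 0.320 with IL-4, 1.08, 1.07 and 0.668 with LPS, and 25.2, 27.5 and 25.8 with IL-4+LPS. Unlike the other Apol7 members, its LPS samples all lay above its IL-4 samples. The IL-4+LPS mean was 26.2 ± 1.18 FPKM (SD, n = 3), which was 57.1-fold above IL-4 and 27.9-fold above LPS. For all 3 Apol7 members the folds over control rest on control values near the bottom of the scale, where 1 fragment more or less weighs heavily.

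Beyond the single stimuli, the combined level exceeded both an additive and a multiplicative reference. Since Gm8221 and Apol7a were picked for large positive interactions, and Apol7c with earlier results known, this is a description and not a test. Adding the single gains to the control level gave 22.8 FPKM for Apol7c, and the measured mean was 17.98 times that sum. Multiplying the single folds gave 159.9 FPKM, and the measured mean was 2.56 times that product. The corresponding excess over the product was 3.42 for Gm8221 and 3.96 for Apol7a. These ratios lean on control replicate 2, the highest control sample of all 3 genes: without it they were 1.80 for Apol7c, 1.71 for Gm8221 and 2.31 for Apol7a.

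**Figure D3:**
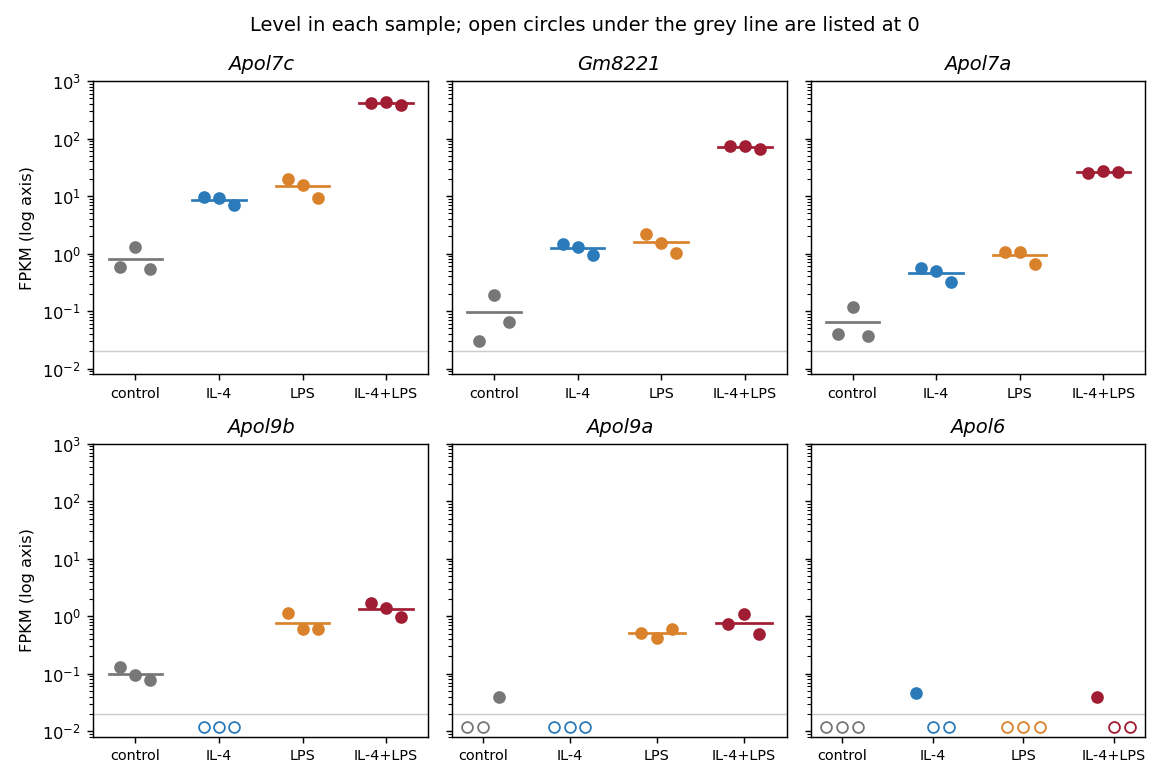
FPKM of each member (log axis) in each of the 12 samples, with 3 points per group in replicate order and a bar at the group mean; open circles under the grey line are samples listed at 0, and no mean is drawn below that line. The IL-4+LPS samples of Apol7c, Gm8221 and Apol7a lie at 25.2 FPKM or more, above every other sample of the same gene, whereas the LPS and IL-4+LPS samples of Apol9a and Apol9b overlap.

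Apol9b and Apol9a showed a different order, in which the LPS groups with and without IL-4 overlapped. Apol9b stood at 0.129, 0.0962 and 0.0780 FPKM in control cells, was listed at 0 in all 3 IL-4 samples, and read 1.12, 0.592 and 0.606 with LPS and 1.69, 1.37 and 0.964 with IL-4+LPS. The last 2 groups overlapped, with means that differed 1.73-fold. Apol9a was listed at 0 in 2 control samples and at 0.0397 FPKM in the other, was listed at 0 in all 3 IL-4 samples, and read 0.507, 0.426 and 0.594 with LPS and 0.726, 1.08 and 0.497 with IL-4+LPS. These groups overlapped as well, with means that differed 1.51-fold. Since the rows share most of their sequence, their sum is the firmer value: it was 1.63, 1.02 and 1.20 FPKM with LPS and 2.41, 2.45 and 1.46 with IL-4+LPS, again with overlap.

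Apol6, which lies far from the rest and shares no read-length word with them, was listed at 0 in 10 samples. Its highest value was 0.0457 FPKM. It did not reach the filter of 1 FPKM in at least 1 sample, so 5 of the 6 members entered the fit across 11191 rows, and Apol9a did so through a single IL-4+LPS sample.

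That fit used limma on log2(FPKM + 1), a scale that compresses differences of low values. On it Apol7c differed from control by 2.42 (SE 0.24) with IL-4 and by 3.11 (SE 0.24) with LPS, and IL-4+LPS differed from IL-4 by 5.43 and from LPS by 4.74. The interaction, defined as how much larger the LPS response was in IL-4-treated than in untreated cells, was 2.32 (SE 0.34). Since both single-stimulus contrasts and both combined contrasts reuse the same samples, they are not independent of each other.

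The other Apol7 members had smaller single responses and larger interactions on this scale. Gm8221 differed from control by 1.02 (SE 0.16) with IL-4 and by 1.22 with LPS, and IL-4+LPS differed from LPS by 4.81, with an interaction of 3.79 (SE 0.22). Apol7a differed from control by 0.45 (SE 0.10) with IL-4 and by 0.86 with LPS, and IL-4+LPS differed from LPS by 3.82, with an interaction of 3.36 (SE 0.15). By size of the interaction, Gm8221 ranked 18, Apol7a 20 and Apol7c 46 among the 11191 rows, which is the measure 2 of them were chosen by.

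Part of that order comes with the pseudocount. With 0.1 in place of 1 the interaction of Apol7c was 1.49, that of Gm8221 2.61 and that of Apol7a 2.92, while the difference of IL-4+LPS from LPS was 4.83 for Apol7c. The Apol7c interaction was within the adjusted threshold with a pseudocount of 1 and outside it with 0.1.

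Apol9b and Apol9a differed from control by 0.67 (SE 0.14) and 0.57 (SE 0.11) with LPS. IL-4+LPS differed from LPS by 0.40 for Apol9b and 0.22 for Apol9a, and their interactions were 0.54 (SE 0.19) and 0.24 (SE 0.16). For IL-4 alone the differences from control were -0.14 and -0.02.

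**Figure D4:**
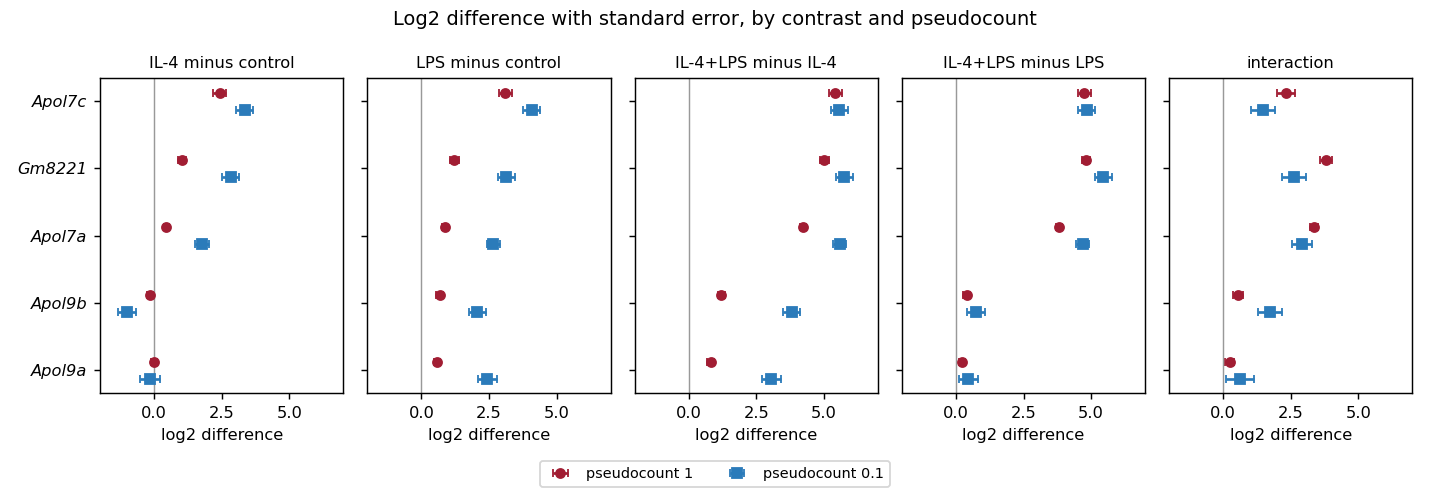
Log2 difference of each of the 5 members in the fit (x axis, error bars are standard errors of the limma fit over 12 samples) in each of the 5 contrasts, with a pseudocount of 1 (circles) and of 0.1 (squares). In the interaction panel the smaller pseudocount lowers Apol7c from 2.32 to 1.49 and raises Apol9b from 0.54 to 1.74, so the members' order in that panel depends on it.

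Counts of members past the adjusted threshold of 0.05 are given with the share of all tested rows past it, and nothing is read from them because the members were picked with these contrasts known. With IL-4 against control, 3 of the 5 members in the fit were higher, against 16% of all rows higher and 21% lower. With LPS against control, all 5 were higher, against 16.9% of rows higher and 57.7% lower. IL-4+LPS against IL-4 had all 5 higher, against 15% and 57.9%, and IL-4+LPS against LPS had 4 higher, against 15% and 15.8%. The fourth of these was Apol9b, whose difference of 0.40 missed the threshold in 13 of 21 alternative fits. In the interaction 3 were higher, against 4.58% of rows higher and 4.63% lower.

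The lower calls in the LPS contrasts went with a shift of all rows. The median row was 0.44 lower with LPS than in control on the log2 scale, a gap that median scaling reduced to -0.14. Of all called rows in LPS minus control, 22.6% were higher as deposited and 40.2% after quantile normalization. In IL-4+LPS minus IL-4 these shares were 20.6% and 37.1%. The members' differences in these LPS contrasts were positive under either scaling. The median row was negative in each case, so any positive difference lies above the shift. Nothing is read from this, as the members were picked with these contrasts known.

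Among the other Apol rows in the files, 2 of 9 passed the filter, Apol7b and Apol7e, further protein-coding copies of Apol7. Apol7b lay at or below 0.185 FPKM in the samples of the other groups and at 8.79, 8.34 and 7.39 in IL-4+LPS samples. Apol7e lay at or below 0.372 FPKM outside that group and at 8.25, 9.64 and 7.81 within it. Neither passed the threshold with IL-4 or LPS alone, where the limma adjusted p was 0.217 and 0.108 for Apol7b and 0.0947 and 0.0844 for Apol7e. At an unadjusted p under 0.05, 1 of these rows passed with IL-4 and 0 with LPS. At such low values log2(FPKM + 1) leaves little room for a difference. On group means Apol7b was 4.17-fold above control with IL-4 and 4.57-fold with LPS. With a pseudocount of 0.1 both rows passed the adjusted threshold in both contrasts, so they are not shown to be unresponsive to the single stimuli.

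Both stood highest in IL-4+LPS cells, and they passed the filter only through that group, so their differences from it in the filtered fit are a description. There IL-4+LPS differed from LPS by 3.00 (SE 0.08) for Apol7b and 3.02 (SE 0.11) for Apol7e, and the interactions were 2.86 (SE 0.11) and 2.78 (SE 0.15). The limma fit of all 23847 rows without a filter, where entry does not depend on a row's values, gave an adjusted p of 2.93e-06 for the Apol7b interaction and 3.44e-05 for that of Apol7e. These rows are not separate evidence on 2 genes, as 94.2% of the Apol7b words lie within 2 mismatches of Apol7e. Of the Apol7b and Apol7e words, 4.8% and 5.8% lie within 2 mismatches of Apol7c, 7.9% and 9.3% of Gm8221, and 7.2% and 9.0% of Apol7a. In IL-4+LPS cells Apol7b and Apol7e stood at 1.99% and 2.09% of the Apol7c level. How far reads of the members enter these rows was not tested, so their p-values do not stand apart from the members. The remaining 7 rows stayed under 1 FPKM. Apol10b was highest among them at 0.261 FPKM, in LPS replicate 3, while Apol7d and Apol10a were listed at 0 in every sample.

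The share of Apol7c in the 5 Apol7 rows was 80.6% ± 3.07 in control and 81.2% ± 1.86 in IL-4 cells, and at 83.7% ± 1.16 in LPS cells against 78.2% ± 0.15 after both (SD, n = 3). Relative to Apol7c, however, Gm8221 was not constant. Its level was 14.2% of the Apol7c level in IL-4 cells (13.3% to 15.1%), 10.7% in LPS cells (10.09% to 11.01%) and 17.3% in IL-4+LPS cells (17.0% to 17.9%). The ranges of these 3 groups of 3 samples did not overlap, and the control samples ranged from 5.16% to 14.7% at their low counts. Apol7a kept a narrower band, with group means of 7.56% in control, 5.25% in IL-4-treated, 6.47% in LPS-treated and 6.40% in doubly treated cells. Beside these ratios stand the shares of Apol7c words that match the other gene, which are 3.6% identical and 25.4% within 2 mismatches for Gm8221, and 2.1% and 13.7% for Apol7a. The part of shared sequence in the Gm8221 and Apol7a levels was not tested.

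**Figure D5:**
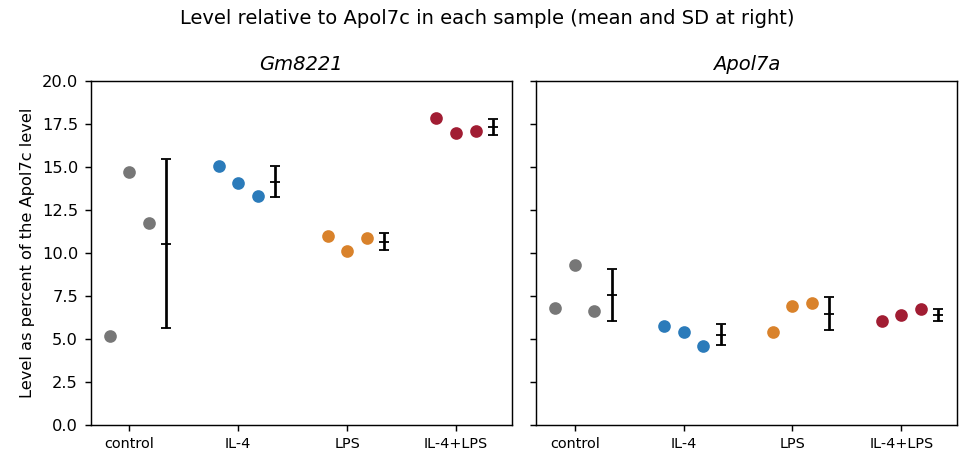
Level of Gm8221 (left) and Apol7a (right) as a percent of the Apol7c level in the same sample, with 3 points per group and the mean with SD beside them. Gm8221 sits at 10.09% to 11.01% in LPS cells and at 17.0% to 17.9% in IL-4+LPS cells, whereas Apol7a lies between 4.59% and 9.28% in all 12 samples.

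Among the members, Apol7a and Gm8221 had the most similar profiles over the 12 samples (Pearson r = 0.997 of log2(FPKM + 1)), and both share sequence with the other Apol7 rows. Outside the Apol family, the rows most like a member were sought by the same measure among 7267 rows with a range of at least 1 on that scale. The correlation ignores the size of a change, and its points share 4 groups, so it is given as a description. Serpina3g, a serine protease inhibitor gene, was the closest of these to both Apol7a (r = 0.988) and Gm8221 (r = 0.986). Its mean was 0.129 FPKM in control cells, 0.568 with IL-4, 2.23 with LPS and 30.3 with IL-4+LPS. Serpina3h, its neighboring family member, and Lpcat1, a phospholipid-remodeling acyltransferase, completed the 3 closest rows outside the family for both.

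Apol7c was most like Jund, an AP-1 subunit (r = 0.991), Alas1, the rate-limiting enzyme of heme synthesis (r = 0.984), and Papss2, which makes the sulfate donor (r = 0.977). Their ranges were far smaller than that of Apol7c, Jund going from 40.7 FPKM in control to 66.1 with IL-4, 77.3 with LPS and 171.5 with IL-4+LPS. Apol9b was most like Frmd4a (r = 0.976), Cd83, a maturation marker of antigen-presenting cells (r = 0.973), and H2-M2, a nonclassical MHC class I gene (r = 0.970). For Apol9a the closest were Tmem128 (r = 0.969), Gm11435 (r = 0.961) and Gem, a small GTPase gene (r = 0.960).

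Interferon-stimulated genes form the background for Apol9a and Apol9b. Of 31 listed, 31 were higher with LPS than in control, against 16.9% of all rows. Their median log2 difference was 3.56 against -0.44 for all rows. With IL-4 against control, 21 were lower and 2 were higher, against 21% and 16% of all rows. The median there was -0.80 against -0.05. In IL-4+LPS against LPS, 1 was higher and 4 were lower, which became 3 higher without control replicate 3 and 1 lower without IL-4+LPS replicate 3. The 2 with the largest difference there were Cxcl10, a T cell attractant, which fell by 1.18 on the log2 scale (SE 0.35, limma adjusted p = 0.0271), and Ifit3, an antiviral effector, at -1.17 (SE 0.47, limma adjusted p = 0.0854). Apol7c, Gm8221 and Apol7a lay outside the range of this list in that contrast, which ran from -1.18 to 0.80. Nothing is read from this, as the members were picked with these contrasts known. In the interaction 4 of the 31 were higher, a count that ranged from 0 to 13 when a single sample was left out, at 0 without IL-4 replicate 2 and at 13 without IL-4 replicate 1.

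Of 22 listed IL-4 targets, 21 entered the fit and 19 were higher with IL-4 than in control, with a median log2 difference of 2.86. In IL-4+LPS against LPS, 15 were higher, with a median of 2.92 against -0.03 for all rows. Retnla, which encodes the secreted protein RELM-alpha, differed most (11.01, SE 0.35, limma adjusted p = 1.38e-08), followed by Ear11, a ribonuclease gene (7.66, SE 0.14, limma adjusted p = 6.42e-10). Retnla read 12170 FPKM in IL-4 and 10480 in IL-4+LPS cells, and Ear11 296.9 and 213.8. The Apol7 members lay within the range of this list in IL-4+LPS against LPS, which ran from -0.56 to 11.01. So did Apol9b (0.40) and Apol9a (0.22). Nothing is read from this, as the range is wide and the members were picked with these contrasts known. In the interaction 2 of the 21 were higher and 7 were lower. The 2 were Ccl17 (3.86, SE 0.64, limma adjusted p = 0.00404) and Ccl24 (1.92, SE 0.52, limma adjusted p = 0.0444).

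Genes around the cluster were listed by position alone. Of 32 rows within 500 kb of the outermost members, 23 passed the filter, and in the interaction 0 passed the threshold by limma, with 4 at an unadjusted p under 0.05. Their interactions ran from -0.21 to 0.54. With LPS against control, 18 of the 23 were lower and 1 was higher, with a median log2 difference of -0.76 against -0.44 for all rows. On the lower-coordinate side the window was set by Apol6, and most of the 23 lay beyond Apol6 from the Apol7 genes. The values therefore say little about genes right next to the Apol7 rows.

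Marker genes were read as a check of the cells. All 8 macrophage markers in the files reached 1 FPKM, with summed levels from 19378 to 20751 FPKM in control samples, 7585 to 7799 after IL-4, 16816 to 17853 after LPS and 6854 to 7153 after both. Most of that sum was Lyz2, and the other 7 summed to 4033 to 4250 FPKM in control, 2672 to 2965 after IL-4, 4313 to 4418 after LPS and 2646 to 2727 after both. The sum of 8 dendritic cell markers was 27.7 to 44.3 FPKM in control and 23.6 to 35.4 in LPS samples, and 299 to 346 in IL-4 and 301 to 366 in IL-4+LPS samples. Nearly all of it was Itgax, which macrophages also express. Among the other markers of that list, Flt3, Xcr1 and Clec9a had group means of at most 0.151 FPKM. The highest group means of Ccr7, Cd209a and Siglech were 0.926, 0.486 and 0.383 FPKM. Zbtb46 averaged 0.080 FPKM in control, 0.369 after IL-4, 0.518 after LPS and 2.42 after both. Its group means ranked in the same order as those of Apol7c, which was true of no other marker in that list. Ccr7 averaged 0.926 FPKM after LPS and 0.388 after both. Cd209a was highest in control, at 0.486 FPKM. The part of dendritic cells in the Apol7 levels was not tested. In these bulk samples more expressing cells and more RNA per cell cannot be told apart. Sums for fibroblast, T cell and B cell markers were at most 0.31 FPKM, and the neutrophil list, led by S100a8 and S100a9, summed to 210 to 974 FPKM without following the Apol7 order.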

How the data were processed

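Poly-A RNA of 12 BMDM samples was sequenced as paired reads of 100 bases. The authors mapped reads to mm10 with TopHat2 2.0.7 and computed FPKM with Cufflinks 2.0.2, per the labels and the study's methods, and deposited 1 FPKM table per sample. The annotation is not given in the sources used here. Absolute depth was unknown; relative depth, read from the steps of low values, ran from 0.99 to 3.3, and FPKM totals from 457583 to 495025.

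Rows with at least 1 FPKM in at least 1 sample (11191 of 23847) were fitted as log2(FPKM + 1) with limma 3.58.1 in R 4.3.3 (group means, intensity trend). Benjamini-Hochberg adjustment was made per contrast with a threshold of 0.05. The fit was tested on simulated data. Words of 100 bases came from GENCODE transcripts and promoters from RefSeq. Protein sequences were not analysed here.

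Members, gene lists and motifs were chosen with earlier results of these data known. Named were all members, other Apol rows past the filter and neighbors past the interaction threshold. Also named were the 2 interferon and 2 IL-4 genes with the largest IL-4+LPS minus LPS difference, and the 3 rows most correlated with each member. Apol10b, Apol7d, Apol10a, Apol11a, Apol11b, Ccl17, Ccl24 and the marker genes were named after their values were seen. Alternatives were a pseudocount of 0.1, other filters and scalings, no trend, fewer groups, a replicate block, replicates 2 and 3, and each sample left out.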

Additional observations from a re-analysis of the deposited data

Results flagged for a closer look

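For 5 Apol rows the response to LPS differed between cells with and without earlier IL-4. In log2(FPKM + 1), the LPS response after IL-4 exceeded that without it by 3.79 for Gm8221, 3.36 for Apol7a and 2.32 for Apol7c. These 3 genes were picked with the contrast known, so their values carry no test. The excess was 2.86 for Apol7b and 2.78 for Apol7e, which passed the filter on low values only through the IL-4+LPS group; in the limma fit without that filter the adjusted p was 2.93e-06 and 3.44e-05. In each of the 5 rows, all 3 IL-4+LPS samples lay above every other sample. The rows were listed by their interaction, so nothing is read from this separation, and its share over all rows was not counted. Apol7b and Apol7e share 94.2% of read-length words within 2 mismatches, so they were not counted as separate evidence. Both also share such words with the 3 members, and the part of this in their values was not tested. Groups held 3 samples, too few to test single samples as outliers.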

How the results depend on the processing

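Apol7b and Apol7e were past the threshold, both higher, in the interaction and in the contrasts of IL-4+LPS with IL-4 and with LPS, under every alternative run. Wherever the filter applies this is no sign of stability, since they passed it only through the IL-4+LPS group. In IL-4 minus control the count of other Apol rows past the threshold went from 0 to 2 with a pseudocount of 0.1. In LPS minus control it went from 0 to 2 with a pseudocount of 0.1 and with only the compared groups in the fit, to 1 with quantile normalization (Apol7e) and to 1 without the filter on low values (Apol10b, adjusted p = 0.0046 by limma), and ranged from 0 to 1 when a sample was left out, at 1 without IL-4 replicate 1.

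For the members, 497 of 520 alternative values kept direction and side of the threshold and 0 reversed. This count is no sign of stability, since the members were picked with these contrasts known and every fit reuses the same samples. Apol7c's interaction missed the threshold with a pseudocount of 0.1 (1.49), and the Apol9b difference of IL-4+LPS from LPS, 0.40 as given, ran from 0.30 to 0.74 and missed the threshold in 13 of 21 alternatives, 10 of them a left-out sample. Apol9b's interaction passed it in 5 alternatives: quantile normalization (0.62), a pseudocount of 0.1 (1.74), replicates 2 and 3 only (0.55), without LPS replicate 1 (0.68) and the replicate block (0.54). Leaving samples out of the excess over the product of single folds, an alternative chosen after seeing the data, gave 1.80 to 3.09 for Apol7c, 1.71 to 4.59 for Gm8221 and 2.31 to 4.84 for Apol7a.

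Samples with the same replicate number deviated together weakly on average. The correlation of their deviations averaged 0.124 (0.0024 to 0.386) and was over 0.1 in 11 of 18 pairs. Among samples of other groups, 7 of 12 samples were closest to their own number. These values do not show the samples to be unpaired. The labels do not tie a number to an animal, so the main fit left pairs out and the replicate block is given beside it. With the replicate block the count of Apol7b and Apol7e past the threshold was 0, 0, 2, 2 and 2 in the 5 contrasts, and the interaction counts over all rows went from 512 higher and 518 lower to 1145 and 1095, and with replicates 2 and 3 only to 1481 and 1386. Leaving out single samples took them as low as 311 and 334, without LPS replicate 3. Interferon-stimulated genes higher in the interaction went from 4 to 16 with the replicate block, 19 with replicates 2 and 3 and 0 without the filter. Lower calls in IL-4+LPS minus LPS went from 1771 to 2667 with the block and 2901 with replicates 2 and 3. Neighbors past the threshold in the interaction went from 0 to 1 with the block and to 4 with replicates 2 and 3, all higher. Median scaling took higher calls in LPS minus control from 1887 to 2966 and lower calls in IL-4+LPS minus IL-4 from 6474 to 4057. Causes were not tested. Values under 0.1 FPKM are the least precise, above all in the shallower samples.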
